A study of Homo sapiens with 12 samples.

Results

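The RNAs described here are those encoded in the mitochondrial genome, taken as every gene symbol of the deposited count table that starts with MT- and holds at least 10 counts summed over the 12 libraries. The rule gave 35 of 55782 symbols: 13 mRNAs and 22 tRNAs. The annotation lists 37 mitochondrial genes, and both ribosomal RNAs, MT-RNR1 and MT-RNR2, are not analysed here. The libraries came from co-cultures of JurkatLAG3+PD1+, a human T cell leukaemia line carrying the inhibitory receptors LAG3 and PD1, with Raji-PDL1, a human Burkitt lymphoma B cell line carrying the PD1 ligand PDL1. Raji cells were loaded with the superantigen SED (staphylococcal enterotoxin D) at 100 ng/ml in all arms, and the co-culture lasted 24 h. The 4 arms were an isotype control antibody, anti-LAG3 (MK4280) with isotype, anti-PD1 (MK3475) with isotype, and both antibodies together (the combination). Doses were 1, 0.1 and 0.01 µg/ml per antibody in every arm. Each condition was 1 library made from several pooled wells, with no replicate, and an arm mean is taken over its 3 dose levels. P-values thus rest on the variation among the 12 libraries, which may be technical. Both lines contributed RNA to every library, and fewer cells of a line and less RNA per cell cannot be told apart.

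The mitochondrial genome is a small circle that carries genes on both strands. Each strand is transcribed by the polymerase POLRMT into long precursors, from which the tRNAs are cut out, and this cutting releases the mRNAs and rRNAs between them. The mRNAs encode core subunits of complex I (the ND genes), complex III (MT-CYB), complex IV (the CO genes) and ATP synthase (the ATP genes). All other subunits of these complexes come from nuclear genes. In T cells, mitochondrial respiration is known to support activation and proliferation.

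The 13 mRNAs divide into 7 for complex I, 1 for complex III, 3 for complex IV and 2 for ATP synthase. MT-ND6 and 8 tRNAs lie on the minus strand of the annotation (GRCh38), and the other members on the plus strand. Their deposited lengths, 207 to 1812 bases for mRNAs and 59 to 75 for tRNAs, equal their spans in the GENCODE v29 annotation for all 35. Reads of a minus-strand gene and of the plus-strand precursor across it cannot be told apart without the strand setting, which is not given in the sources used here. Of the 35, 5 pairs overlap, and reads within an overlap cannot be assigned to 1 gene. The longest overlap is between MT-ATP8 and MT-ATP6, which are translated from 1 mRNA in different frames. The overlap of MT-ND4L and MT-ND4 is the other case of a shared mRNA. Both overlaps are shown because ratios within these pairs are used below. They lie on the plus strand at chrM:8527-8572, which is 46 bases, and chrM:10760-10766, which is 7 bases, and capitals mark the start codon of the second gene.
MT-ATP8 and MT-ATP6: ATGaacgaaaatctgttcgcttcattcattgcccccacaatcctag
MT-ND4L and MT-ND4: ATGctaa

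The 5 tRNAs with the most counts were MT-TL1 (leucine), MT-TN (asparagine), MT-TC (cysteine), MT-TP (proline) and MT-TY (tyrosine). They are printed because most tRNA counts, and the tRNA whose level varied most between libraries at a high count, come from them. They are given in the RNA sense from the reference, 5′ to 3′, with T for U, without the CCA end that is added after transcription. Capitals mark the anticodon. MT-TL1 lies at chrM:3230-3304 on the plus strand. The other 4 lie on the minus strand, MT-TN at chrM:5657-5729, MT-TC at chrM:5761-5826, MT-TY at chrM:5826-5891 and MT-TP at chrM:15956-16023.
MT-TL1: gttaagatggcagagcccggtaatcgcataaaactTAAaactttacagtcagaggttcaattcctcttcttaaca
MT-TN: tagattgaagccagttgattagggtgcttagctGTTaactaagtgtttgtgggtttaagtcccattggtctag
MT-TC: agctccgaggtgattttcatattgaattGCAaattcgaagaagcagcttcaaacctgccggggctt
MT-TY: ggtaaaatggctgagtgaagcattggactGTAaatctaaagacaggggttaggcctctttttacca
MT-TP: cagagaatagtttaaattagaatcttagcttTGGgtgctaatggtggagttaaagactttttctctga

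Libraries held 23593973 to 36581754 counts. Markers fixed for each line were present, with none at 0 in any library: 23 of 24 Jurkat T markers and 28 of 28 Raji B markers passed the count filter. The summed level of the T markers was 1671 to 1901 CPM (counts scaled to a common library size) with isotype, 1909 to 2086 with anti-LAG3, 1781 to 2020.4 with anti-PD1 and 1826 to 2101 with the combination. For the B markers it was 10446 to 11971, 10552 to 10717, 10849 to 11207 and 11097 to 11593 CPM in the same order. The mean log2 level of T markers minus that of B markers was -1.89 to -1.84 with isotype and -1.69 to -1.59 with anti-LAG3, without overlap. It was -1.82 to -1.71 with the combination, also wholly above isotype, and -1.92 to -1.71 with anti-PD1, which overlapped with isotype. The GC content of the counts of nuclear genes, each gene weighted by its counts, was 48.8% to 49.1% in the 6 libraries with a single antibody and 48.6% to 48.7% in the 6 with isotype or the combination, without overlap. The single antibodies carry the lower numbers in the submitters' labels, 2 to 8, and the combination and isotype libraries 10 to 16, so this order and the split into arms cannot be told apart.

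Mitochondrial RNAs made up a smaller share of the library with either antibody alone than with isotype or the combination. They took 4.13%, 3.72% and 3.75% of all counts with isotype at 1, 0.1 and 0.01 µg/ml. With anti-LAG3 the shares were 2.49%, 3.20% and 3.18%, and with anti-PD1 they were 3.39%, 3.30% and 3.01%. With the combination they were 3.76%, 3.51% and 3.92%. All 6 single-antibody libraries lay below all 6 others, and the combination overlapped with isotype. The mean was 3.87% ± 0.23 (SD, n = 3) with isotype, 2.96% ± 0.41 with anti-LAG3, 3.23% ± 0.20 with anti-PD1 and 3.73% ± 0.21 with the combination. The 95% binomial interval of a share, which covers counting error only, spanned 0.0109 to 0.0147 percentage points. The shares are given as a description with no test.

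**Figure D1:**
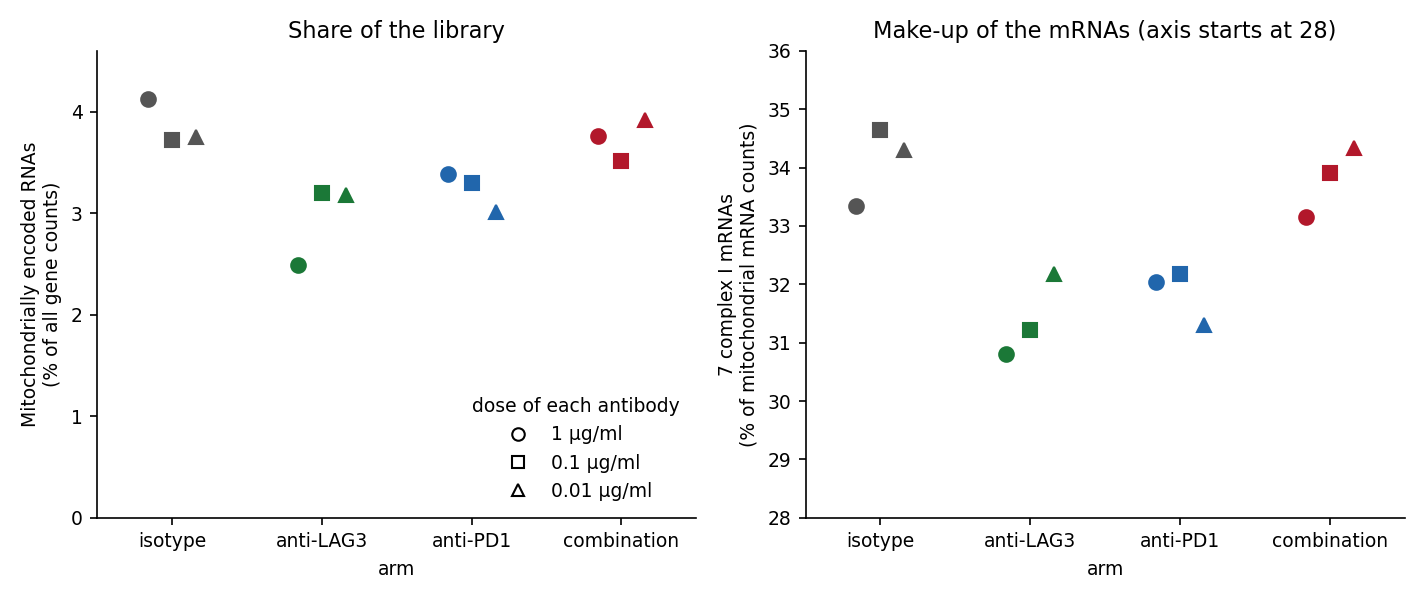
Left: mitochondrially encoded RNAs as a percent of all gene counts, 1 point per library, by arm, with the marker showing the dose; the axis starts at 0. Right: the 7 complex I mRNAs as a percent of mitochondrial mRNA counts, on an axis that starts at 28; in both panels the 6 single-antibody libraries lie below the 6 others.

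The mRNAs of complex IV and ATP synthase were the most abundant per length. Over the 12 libraries the mean level was 5752 CPM per kb of gene for MT-CO1, the catalytic subunit of cytochrome c oxidase, and 5714 for MT-CO3. MT-CO2 followed at 5088, MT-ATP8 at 4868 and MT-ATP6 at 4554 CPM per kb. The complex I mRNAs and MT-CYB were lower, from 2564 CPM per kb for MT-ND4 to 1243 for MT-ND5, and MT-CYB stood at 1717. MT-CO1 and MT-ND5 thus differed 4.63-fold. Each of MT-ATP6, MT-ND4 and MT-ND4L lay above the next mRNA of this order in all 12 libraries, and so did MT-CO3, MT-ND6 and MT-ND2. Other neighbours did not keep their order: MT-CO1 exceeded MT-CO3 in 8 of 12 libraries, MT-ATP8 exceeded MT-ATP6 in 8, MT-ND3 exceeded MT-CYB in 8, and MT-CYB exceeded MT-ND6 in 7. MT-CO2 exceeded MT-ATP8, and MT-ND1 exceeded MT-ND3, in 10 of 12 libraries. In every library the 5 mRNAs of complex IV and ATP synthase all lay above the other 8.

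**Figure D2:**
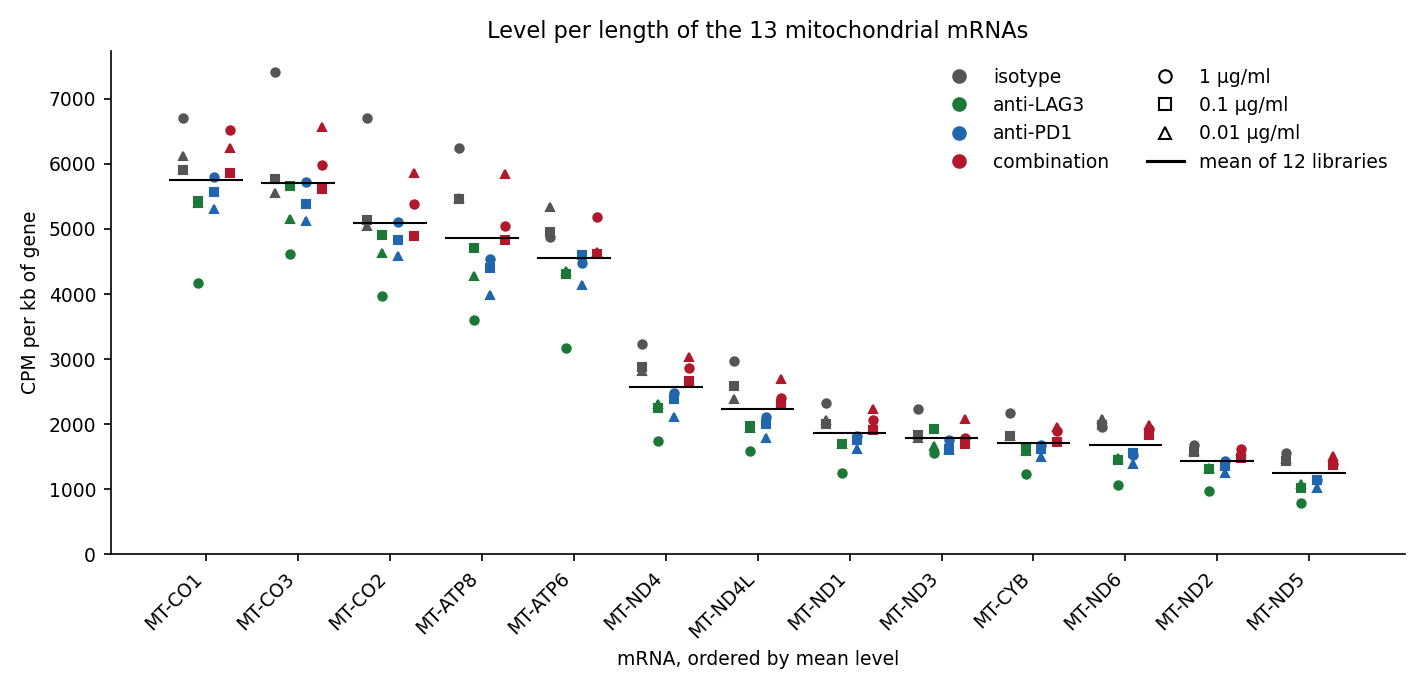
Level of the 13 mRNAs in CPM per kb of gene, ordered by mean, with 1 point per library (colour for arm, marker for dose) and a line at the mean of 12 libraries. The 5 mRNAs of complex IV and ATP synthase average 4554 to 5752 CPM per kb, and the other 8 average 1243 to 2564.

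Of the 35 members, 32 passed the filter on low counts and were tested among 15535 genes. MT-TG, MT-TR and MT-TS2, with 70, 26 and 78 counts in all, did not pass. In what follows a log2 difference is between arm means of 3 libraries, a value after ± is its standard error, and a member is called at a p under 0.05 from the quasi-likelihood test of edgeR, after Benjamini-Hochberg adjustment over all genes. The comparisons with isotype share the same 3 isotype libraries.

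With anti-LAG3, 8 of 32 members fell against isotype and none rose, where 5.16% of all tested genes were called lower. All 13 mRNAs had values below 0, with a median of -0.43, beside -0.0015 over all genes. The 3 mRNAs that fell encode complex I subunits. MT-ND5, which forms part of its proton-pumping arm, measured 2807, 2601 and 2646 CPM with isotype at 1, 0.1 and 0.01 µg/ml and 1439.5, 1857.5 and 1948 CPM with anti-LAG3. The arms did not overlap, and the lowest anti-LAG3 library was the one at 1 µg/ml. Its log2 difference was -0.62 ± 0.11 (adjusted p = 0.0128). MT-ND6, the complex I mRNA of the minus strand, measured 1026, 1039.7 and 1091 CPM with isotype and 558, 758 and 778 CPM with anti-LAG3, without overlap. Its difference was -0.60 ± 0.11 (adjusted p = 0.0148). MT-ND4, another subunit of the pumping arm, measured 4451, 3970 and 3888 CPM with isotype and 2402, 3093 and 3173 CPM with anti-LAG3. The arms did not overlap here either, and the difference was -0.51 ± 0.13 (adjusted p = 0.0478).

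The other 10 mRNAs did not pass. MT-ND4L stood closest to the threshold at -0.53 ± 0.13 (adjusted p = 0.0520), and MT-ND3 farthest at -0.18 ± 0.13 (adjusted p = 0.446). MT-ND1 was at -0.47, MT-ND2 at -0.43, MT-CYB at -0.39, MT-ATP8 at -0.45 and MT-ATP6 at -0.36. The complex IV mRNAs MT-CO1, MT-CO2 and MT-CO3 were at -0.32, -0.31 and -0.27. The median was -0.51 over the 7 complex I mRNAs and -0.31 over the 3 of complex IV; whether the complexes differ was not tested. In 24 of 32 members, 11 of them mRNAs, all anti-LAG3 libraries lay below all isotype libraries, beside 14.2% of all tested genes.

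**Figure D3:**
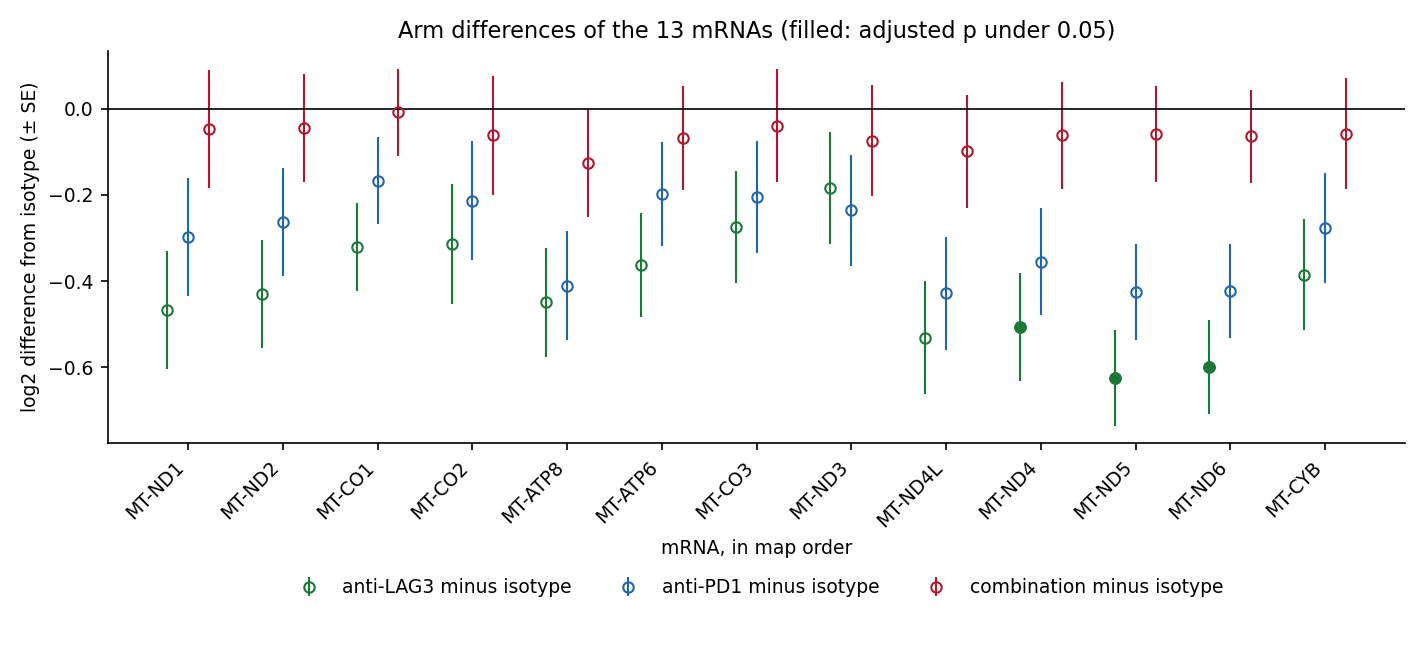
Log2 difference of each arm mean from isotype for the 13 mRNAs in map order, with standard errors as bars; filled points have an adjusted p under 0.05. All points lie below 0, and those of the combination lie between -0.13 and -0.01.

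Among the tRNAs, 5 of 19 fell with anti-LAG3. MT-TV (valine) measured 26.2, 24.6 and 24.9 CPM with isotype and 13.1, 18.2 and 19.3 with anti-LAG3, a difference of -0.60 ± 0.10 (adjusted p = 0.00256). MT-TL1 measured 93.2, 89.1 and 85.5 CPM against 52.0, 67.6 and 69.9, a difference of -0.51 ± 0.12 (adjusted p = 0.0403). MT-TF (phenylalanine) measured 26.6, 28.6 and 24.3 CPM against 12.2, 20.8 and 18.0, a difference of -0.66 ± 0.17 (adjusted p = 0.0458). In each of these 3 plus-strand tRNAs the arms did not overlap. MT-TE (glutamate) at -0.60 ± 0.15 (adjusted p = 0.0218) and MT-TA (alanine) at -0.92 ± 0.21 (adjusted p = 0.00857) are minus-strand tRNAs with far fewer counts. MT-TE measured 11.3, 10.3 and 10.1 CPM with isotype and 6.53, 8.62 and 6.00 with anti-LAG3. MT-TA measured 2.96, 2.83 and 2.24 CPM against 1.49, 1.52 and 1.24. Members of both strands were thus among those that fell.

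These calls depended on the model. With a correction for GC content and length 1 of the 8 remained, although the mRNA median was still -0.38, and none remained once the T minus B value entered as a covariate (mRNA median -0.62). Without the isotype library at 1, 0.1 or 0.01 µg/ml the count was 3, 2 or 4, without anti-PD1 at 0.1 µg/ml it was 5, and without the 3 libraries with the most counts it was 15 (mRNA median -0.26). The mRNAs hold 39.6% to 47.7% GC, below the median of 48.5% over tested genes. Genes called lower with anti-LAG3 had a median of 42.9% GC and those called higher 58.5%. The part of GC content in the fall was not tested beyond that correction.

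With anti-PD1, all 13 mRNAs again had values below 0, with a smaller median of -0.28, and none passed the test. MT-ND4L (-0.43 ± 0.13), MT-ND5 (-0.43 ± 0.11) and MT-ND6 (-0.42 ± 0.11) were lowest, at adjusted p = 0.145, 0.0850 and 0.0851. MT-ND5 measured 2079, 2082 and 1835 CPM at 1, 0.1 and 0.01 µg/ml, all below the isotype libraries given above. MT-CO1 was highest at -0.17 ± 0.10 (adjusted p = 0.425). The 3 members that fell were tRNAs, where 1.73% of all tested genes were called lower. MT-TE measured 6.42, 5.79 and 5.05 CPM, at -0.87 ± 0.16 (adjusted p = 0.0105). MT-TA measured 1.59, 1.43 and 1.54 CPM, at -0.82 ± 0.22 (adjusted p = 0.0346). MT-TT (threonine) measured 3.03, 2.98 and 3.04 CPM, against 5.22, 4.17 and 5.10 with isotype, at -0.68 ± 0.18 (adjusted p = 0.0385). All anti-PD1 libraries lay below all isotype libraries in 25 of 32 members, 11 of them mRNAs, beside 11.0% of tested genes. None of the 3 tRNAs passed with the GC and length correction or without anti-PD1 at 0.1 or 0.01 µg/ml or isotype at 0.1 µg/ml. There were 12 calls without anti-LAG3 at 1 µg/ml, 6 without the combination at 0.01, 1 without the combination at 0.1 or isotype at 1, and 16 without the 3 libraries with the most counts.

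With the combination, no member differed from isotype, where 0.00644% of tested genes, 1 gene, were called. The mRNA median was -0.06, with a range of -0.13 to -0.01. No member reached an unadjusted p under 0.05 in edgeR, and DESeq2 called none. MT-ND5 measured 2524, 2477 and 2742 CPM with the combination at 1, 0.1 and 0.01 µg/ml, and MT-ND6 measured 1009, 961 and 1046 CPM, both overlapping with isotype. No member separated the combination from isotype in either direction, where 4.20% of tested genes lay wholly below and 4.29% wholly above. MT-ND5 differed from isotype by -0.06 ± 0.11.

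Against anti-LAG3 alone, the combination was higher in all 32 members' estimates and 3 were called, where 2.61% of tested genes were called higher. MT-TV rose by 0.63 ± 0.10 (adjusted p = 0.00479), MT-ND5 by 0.57 ± 0.11 (adjusted p = 0.0297) and MT-ND6 by 0.53 ± 0.11 (adjusted p = 0.0351). The mRNA median was 0.33. All anti-LAG3 libraries lay below all combination libraries in 13 members, 10 of them mRNAs, beside 12.6% of tested genes. None of the calls held with the GC and length correction or the T minus B covariate, and 1 held without anti-LAG3 at 0.1 µg/ml or the combination at 0.1 or 0.01 µg/ml.

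Against anti-PD1 alone, the combination had an mRNA median of 0.22 and no member was called, where 0.354% of tested genes were. In edgeR 9 members had an unadjusted p under 0.05, all higher, and DESeq2 called none, with 14 members given no adjusted p. MT-TE came closest, at 0.77 ± 0.16 (adjusted p = 0.0536). All anti-PD1 libraries lay below all combination libraries in 17 members, 10 of them mRNAs, beside 8.01% of tested genes. Leaving out anti-LAG3 at 1 µg/ml gave 3 calls, the combination at 1 gave 2, and anti-LAG3 at 0.1, the combination at 0.01 or isotype at 1 gave 1 each. Without the 3 libraries with the most counts there were 7. Between the 2 single antibodies, anti-PD1 minus anti-LAG3 gave an mRNA median of 0.15, in a comparison added after values were seen. It called 0 members, as for all genes (0% called). There, 1 member had an unadjusted p under 0.05 in edgeR, and DESeq2 called none. MT-TV differed by 0.38 ± 0.10 (adjusted p = 0.975). All anti-LAG3 libraries lay below all anti-PD1 libraries in 2 members and above them in 2, with 0 mRNAs among these. Of all tested genes 5.68% lay below and 5.67% above.

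The estimated effects of the single antibodies did not add up in the combination. The non-additive contrast takes the log2 difference of the combination from isotype and subtracts those of both single antibodies, and it was also added after values were seen. It was above 0 in all 32 members, with an mRNA median of 0.65, and 13 members were called, where 7.30% of tested genes were called in that direction. The 5 mRNAs called were MT-ND5 (0.99 ± 0.16, adjusted p = 0.00515), MT-ND6, MT-ND4L, MT-ND4 and MT-ATP8, 4 of them for complex I. The 8 tRNAs called were MT-TE, MT-TV, MT-TA, MT-TT, MT-TF, MT-TL1, MT-TH (histidine) and MT-TW (tryptophan). With the GC and length correction 2 were called (mRNA median 0.56), and with the T minus B covariate 6. Leaving out anti-PD1 at 0.1 or 0.01 µg/ml gave 7 calls, isotype at 1 or the combination at 0.01 gave 8, and isotype at 0.1 gave 6. Taken as 6 libraries against 6, a grouping chosen after values were seen, the single antibodies lay wholly below the rest in 13 of 32 members, beside 2.53% of tested genes. These were MT-ND1, MT-ND2, MT-ND4, MT-ND4L, MT-ND5, MT-ND6, MT-CYB, MT-CO1, MT-ATP8 and MT-ATP6 with the tRNAs MT-TF, MT-TV and MT-TL1. The mRNAs MT-CO2, MT-CO3 and MT-ND3 overlapped.

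The make-up of the mRNAs shifted along with their amount. Complex I mRNAs took 30.8% to 32.2% of mitochondrial mRNA counts in the single-antibody libraries and 33.1% to 34.7% in the others. Complex IV mRNAs took 49.67% to 51.7% and 47.0% to 49.66%, the closest libraries being anti-PD1 at 0.1 µg/ml and isotype at 1 µg/ml. The shares of ATP synthase (11.8% to 12.5% and 11.05% to 13%) and of MT-CYB (5.64% to 5.79% and 5.65% to 5.95%) overlapped. For each 100 counts of MT-CO3 there were 39.8 to 49.3 of MT-ND5 with a single antibody and 48.3 to 60.7 otherwise, with overlap through isotype at 1 µg/ml. MT-ND6 per 100 counts of the other mRNAs was 2.31 to 2.59 and 2.52 to 3.07. Not every complex I mRNA moved this way. The log2 level of MT-ND3 per mitochondrial mRNA count was taken relative to its mean over 12 libraries. It was 0.253, 0.200 and 0.016 with anti-LAG3 at 1, 0.1 and 0.01 µg/ml. With isotype it was 0.019, -0.062 and -0.107. These ratios were computed after the arm differences were known and carry no test.

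The tRNAs held 112436 counts and the mRNAs 11352419. Mature tRNAs have no poly(A) tail and are short and strongly folded. The molecule is labelled polyA RNA and the extraction protocol describes total RNA, and whether these counts come from mature tRNAs or from precursors cannot be told apart. There were 9.29 to 10.8 tRNA counts per 1000 mRNA counts. The 5 most counted tRNAs took 76.2% to 82.4% of tRNA counts in each library. Their mean levels over 12 libraries were 77.5 CPM ± 12.3 (SD) for MT-TL1, 69.9 ± 8.2 for MT-TN, 46.9 ± 14.0 for MT-TC and 28.04 ± 6.18 for MT-TY, and MT-TP ranged from 36.8 to 61.8 CPM. MT-TV and MT-TF also averaged over 20 CPM, and the other 15 averaged under 10. MT-TR and MT-TS2 each had 0 counts in at least 1 library, which allows up to 3 counts or 0.0820 to 0.127 CPM. Genes for MT-TA, MT-TN, MT-TC and MT-TY lie side by side on the minus strand, and MT-TN exceeded MT-TA in every library, at 50.7 to 87.2 against 1.24 to 2.96 CPM. MT-TN was the only tested member above 0 with anti-PD1 (0.08 ± 0.14, adjusted p = 0.826).

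**Figure D4:**
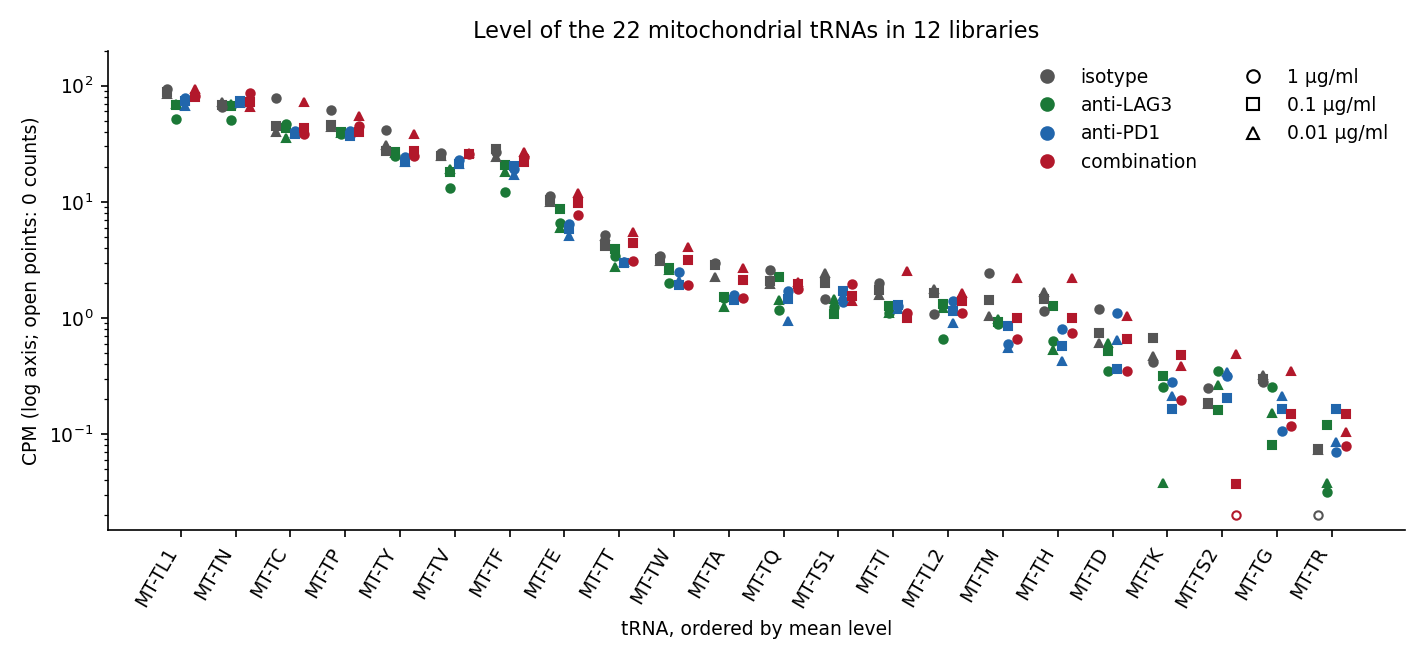
Level of the 22 tRNAs in CPM on a log axis, ordered by mean, with 1 point per library (colour for arm, marker for dose); open points mark 0 counts and sit at an arbitrary height. Means run from 77.5 CPM for MT-TL1 to 0.0821 CPM for MT-TR.

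Across dose, the slopes of the mitochondrial mRNAs with anti-LAG3 were below 0, and whether they were called depended on the model. The slope is the log2 change for each 10-fold rise in dose, and the slope of the isotype series is subtracted. With anti-LAG3 all 13 mRNA slopes were below 0, with a median of -0.27, and 0 members were called where 0.0708% of tested genes were. In edgeR 17 members had an unadjusted p under 0.05, all lower, and DESeq2 called 1. The GC and length correction gave 10 calls, the T minus B covariate 13 and no filter on low counts 14. The shares of all genes called in these alternative fits are not given, so their counts cannot be set against 0.0708%. MT-ND5 and MT-ND4 had slopes of -0.26 ± 0.06 and -0.30 ± 0.06, each at adjusted p = 0.0913. Leaving out anti-LAG3 at 0.1 µg/ml gave 5 calls, and leaving it out at 0.01 gave 7. Without the anti-LAG3 library at 1 µg/ml no member was called and the mRNA median was -0.07. The number of members called was 2 without any 1 combination library, 1 without any 1 anti-PD1 library or isotype at 0.01, and 0 without isotype at 1 or 0.1. With anti-PD1 the mRNA median was -0.0026 and 0 members were called, where 0.264% of genes were. There, 1 member was higher and 1 lower at an unadjusted p under 0.05 in edgeR. DESeq2 called none, with 18 members given no adjusted p. Without isotype at 0.1 or 0.01 µg/ml the count was 1 or 2.

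With the combination, 4 members had a falling slope against isotype and 1 a rising slope, where 2.80% and 1.83% of tested genes were called. MT-TM (methionine) measured 0.665, 1.00 and 2.19 CPM at 1, 0.1 and 0.01 µg/ml and 2.46, 1.42 and 1.05 CPM with isotype, a slope of -1.52 ± 0.29 (adjusted p = 0.00193). MT-TC measured 38.7, 43.4 and 72.8 CPM and 79.1, 45.04 and 40.1 with isotype, a slope of -0.97 ± 0.15 (adjusted p = 0.0223). MT-TY, its neighbour, measured 24.96, 27.3 and 38.6 CPM and 41.8, 27.2 and 30.6 with isotype, a slope of -0.56 ± 0.13 (adjusted p = 0.0423). In each of these, isotype was highest at 1 µg/ml and the combination at 0.01. MT-ND4L measured 713, 686 and 802 CPM and 884, 766 and 709 with isotype, a slope of -0.24 ± 0.06 (adjusted p = 0.0307). MT-TN ran the other way, at 87.2, 72.3 and 66.1 CPM and 66.0, 68.6 and 72.2 with isotype, a slope of 0.27 ± 0.06 (adjusted p = 0.00902). None was called once isotype at 1 or the combination at 0.01 µg/ml was left out, and with both left out the MT-TY slope was 0.046. Leaving out isotype at 0.01 µg/ml gave 3 calls, as did the fit without any 1 anti-PD1 library.

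Without subtracting the isotype series, 3 members fell with anti-LAG3 dose, where 0.0257% of genes were called lower. These were MT-ND5 (-0.22 ± 0.04, adjusted p = 0.0138), MT-TN (-0.22 ± 0.04, adjusted p = 0.0205) and MT-TL1 (-0.21 ± 0.04, adjusted p = 0.0422). In all 3 the lowest anti-LAG3 library was the one at 1 µg/ml. MT-TN measured 50.7, 67.5 and 69.3 CPM at 1, 0.1 and 0.01 µg/ml, and MT-TL1 measured 52.0, 67.6 and 69.9. Slopes within an arm were not refitted with a library left out, so a drop in that library and a dose response cannot be told apart. With the combination MT-TM (-0.89 ± 0.22, adjusted p = 0.0151) and MT-TW (-0.53 ± 0.14, adjusted p = 0.0271) fell and MT-TN rose (0.20 ± 0.04, adjusted p = 0.00429), where 2.16% of genes were called lower and 2.12% higher. No member was called within isotype or anti-PD1, where 0.856% and 0.206% of genes were. The mRNA medians of these slopes were -0.18 with anti-LAG3, 0.10 with isotype, 0.08 with anti-PD1 and -0.05 with the combination.

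The 3 libraries with the most counts were isotype and anti-LAG3 at 1 µg/ml and the combination at 0.01 µg/ml. They stood apart from the others in several mitochondrial ratios, which did not follow arm or dose. They held 28709956 to 36581754 counts and the other 9 held 23593973 to 28361652. For each 1000 counts of MT-CO1 they had 7.32 to 7.66 counts of MT-TC, and the others had 3.85 to 5.18. MT-ATP8 stood at 34.6 to 38.9 per 100 counts of MT-ATP6, with 29.1 to 33.5 in the others. MT-CO2 and MT-CO3 were higher beside MT-CO1 (41.7 to 44.4 and 53.6 to 56.2 per 100, with 36.5 to 40.2 and 46.1 to 53.1 in the others). MT-ATP6 was lower beside MT-CO3, at 57.1 to 61.3 per 100 with 66.2 to 83.4 in the others. tRNA counts per 1000 mRNA counts were 10.3 to 10.8 and 9.29 to 9.97. In each of these ratios except MT-ND4L to MT-ND4 (19.2 to 19.9 and 18.1 to 19.3 per 100) the 3 libraries did not overlap with the rest. Other ratios did overlap. MT-ND5 per 100 counts of MT-CO3 was 39.8 to 53.2 and 41.8 to 60.7, and MT-ND6 per 100 counts of the other mRNAs was 2.31 to 2.78 and 2.44 to 3.07. The libraries were singled out after their values were seen, and the part of depth in this was not tested.

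**Figure D5:**
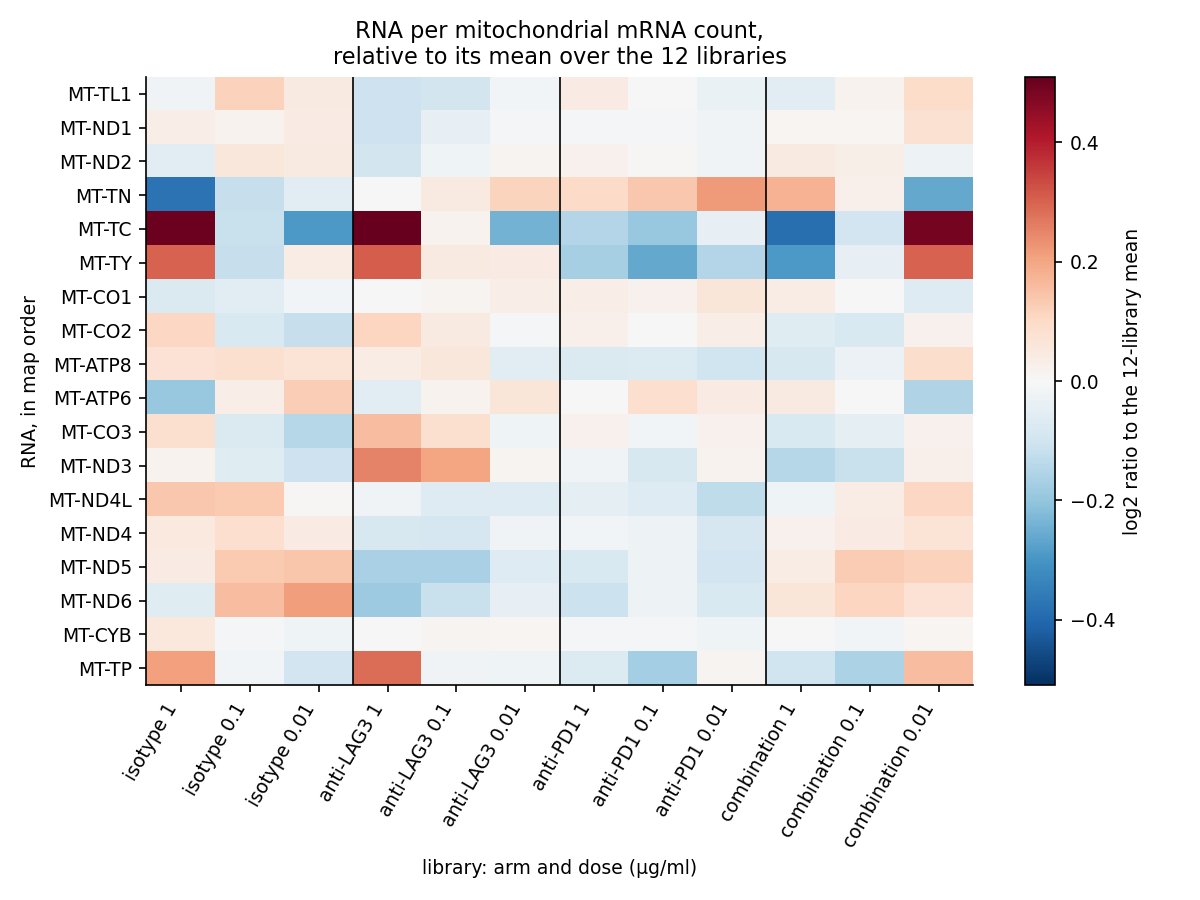
Log2 of each RNA's counts per mitochondrial mRNA count, relative to its mean over 12 libraries, for the 13 mRNAs and 5 tRNAs in map order (red above, blue below the mean); columns are libraries by arm and dose. MT-TC reaches 0.50, 0.51 and 0.49 in isotype at 1, anti-LAG3 at 1 and the combination at 0.01 µg/ml.

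The authors' deposited tables compare each antibody library with the same 3 isotype libraries. In the authors' deposited tables all 13 mRNAs had log2 fold changes below 0 in each of the 6 single-antibody libraries. With the combination at 1, 0.1 and 0.01 µg/ml, 10, 13 and 3 mRNAs were below 0 there, with medians of -0.05, -0.16 and 0.03. With anti-LAG3 at 1, 0.1 and 0.01 µg/ml the authors' deposited tables call 14, 7 and 5 of 32 members at an adjusted p under 0.05, where they call 1.43%, 1.24% and 0.0666% of all genes listed. With anti-PD1 they call 2, 0 and 10 members, where 0.366%, 0% and 0.549% of genes are called. With the combination the authors' deposited tables call 0 members at any dose, where they call 1.67%, 0.179% and 0% of genes. MT-ND5 stands at -0.90, -0.54 and -0.46 with anti-LAG3 and -0.37, -0.36 and -0.54 with anti-PD1 in the authors' deposited tables. Each of those tables sets 1 library against 3 and so rests on the spread of the isotype libraries. Some tRNAs have no adjusted p-value in them and could not be called, among them MT-TE and MT-TF with anti-LAG3 at 0.01 µg/ml.

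Among nuclear genes for the respiratory chain and ATP synthase, those called between the arm means of a single antibody and isotype rose. The list of these subunits also holds SDHA to SDHD of complex II, a complex for which no member codes. Of 76 nuclear-encoded respiratory chain subunits, 21 rose and 0 fell with anti-LAG3 (median 0.12, 7 estimates below 0), where 4.88% of tested genes were called higher. With anti-PD1 8 rose and 0 fell (median 0.06, 20 below 0), where 2.09% of genes were called higher, and with the combination 0 changed (median 0.03, 18 below 0). Of 78 mitochondrial ribosomal proteins, 12 rose with anti-LAG3 and 5 with anti-PD1, and 0 fell. MRPL41 rose by 0.43 ± 0.05 (adjusted p = 0.000467), MRPL38 by 0.51 ± 0.08 (adjusted p = 0.000970) and MRPL14 by 0.32 ± 0.05 (adjusted p = 0.000973) with anti-LAG3. With the GC and length correction the anti-LAG3 counts were 10 subunits and 5 ribosomal proteins, and the anti-PD1 counts were 1 and 0. With the T minus B covariate the anti-LAG3 counts were 0 and 0. Without anti-LAG3 at 1 or 0.1 µg/ml the anti-LAG3 counts were 5 and 4 subunits and 6 and 4 ribosomal proteins. Without isotype at 1, 0.1 or 0.01 µg/ml they were 31, 5 and 10 subunits and 29, 3 and 4 ribosomal proteins. With anti-PD1 they were 14, 0 and 1 subunits and 13, 0 and 2 ribosomal proteins without these isotype libraries in turn, and 1 and 0 subunits and 2 and 0 ribosomal proteins without anti-PD1 at 0.1 and 0.01. Leaving out anti-LAG3 at 1 µg/ml or the combination at 0.1 gave 5 or 3 subunits with anti-PD1. Without the 3 libraries with the most counts, the counts were 27 and 27 with anti-LAG3 and 18 and 16 with anti-PD1. Along the dose slope of anti-PD1 minus isotype, 2 subunits fell and 0 rose, with 66 of 76 estimates below 0, where 0.264% of tested genes were called. NDUFB10 was among them (-0.22, adjusted p = 0.0460), and its call was lost in 12 of 21 alternatives. Along the dose slope of the combination minus isotype, 16 subunits fell and 1, NDUFB2, rose (0.32, adjusted p = 0.000411), and 7 ribosomal proteins fell, where 2.80% of tested genes were called lower and 1.83% higher. Neither list had a call once isotype at 1 or the combination at 0.01 µg/ml was left out. Leaving out the combination at 1 µg/ml gave 10 subunits and 1 ribosomal protein, and isotype at 0.01 gave 13 and 4.

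Genes that make, cut or modify mitochondrial RNA are counted here beside the shares of all tested genes called in the same comparisons, 4.88% higher and 5.16% lower with anti-LAG3 and 2.09% and 1.73% with anti-PD1. Of 9 genes for mitochondrial transcription 0 changed with anti-LAG3, and with anti-PD1 1 rose: POLRMT, the polymerase, by 0.19 ± 0.05 (adjusted p = 0.0284). Of 10 genes for mitochondrial DNA replication 0 changed in either arm. Of 21 RNA processing and decay genes, HSD17B10, a subunit of the mitochondrial RNase P, rose by 0.21 ± 0.05 with anti-LAG3 (adjusted p = 0.00791) and by 0.18 ± 0.05 with anti-PD1 (adjusted p = 0.0334). PNPT1, a ribonuclease of the degradosome, fell by 0.14 ± 0.04 with anti-LAG3 (adjusted p = 0.0409). Of 19 RNA modification genes 3 rose with anti-LAG3, the rRNA methyltransferases MRM1 (0.25 ± 0.07, adjusted p = 0.0351) and MRM3 (0.21 ± 0.06, adjusted p = 0.0233) and the queuosine enzyme subunit QTRT1 (0.22 ± 0.06, adjusted p = 0.01999), and MRM1 also rose with anti-PD1. Of 8 tested nuclear regulators of mitochondrial genes, the coactivators PPARGC1B (-0.34 ± 0.06, adjusted p = 0.00122) and PPRC1 (-0.33 ± 0.05, adjusted p = 0.000860) fell with anti-LAG3, and PPRC1 also with anti-PD1 (-0.30 ± 0.05, adjusted p = 0.00555). Of 17 translation and assembly factors 2 rose with anti-LAG3, among them SCO2, a copper chaperone of complex IV, by 0.31 ± 0.07 (adjusted p = 0.00687). SCO2 was also the 1 factor that rose with anti-PD1 (0.30, adjusted p = 0.0221). With the combination 0 genes of these 6 lists changed against isotype between the arm means. Of 22 alternatives, the anti-LAG3 call was lost in 11 for PNPT1 (adjusted p of up to 0.646), 10 for MRM1, 7 each for MRM3 and QTRT1, 5 for HSD17B10, 4 for SCO2 and 1 each for PPARGC1B and PPRC1. The anti-PD1 call was lost in 6 for HSD17B10, 5 each for POLRMT and MRM1, and 2 for PPRC1. Every one of these calls was lost without 1 or more single libraries, except those of PPARGC1B and PPRC1 with anti-LAG3, which were lost with the T minus B covariate. The anti-PD1 call of SCO2 was lost in 4 of 22 alternatives. Along the dose slope of the combination minus isotype, 1 nuclear regulator rose, ESRRA (0.39, adjusted p = 0.000208), and 1 fell. Of the translation and assembly factors TSFM rose (0.20, adjusted p = 0.0298) and OXA1L fell (-0.17, adjusted p = 0.0280). There, 1.83% of tested genes were called higher and 2.80% lower. These slope calls were lost in 3, 8 and 10 of 21 alternatives for ESRRA, TSFM and OXA1L.

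RNAs of other kinds are given for comparison. Of 3 RNAs retained in the nucleus, KCNQ1OT1 (-0.83 ± 0.16, adjusted p = 0.00264) and NEAT1 (-0.84 ± 0.15, adjusted p = 0.00791) fell with anti-LAG3, where 5.16% of tested genes were called lower. KCNQ1OT1 also fell with anti-PD1 (-0.72, adjusted p = 0.0162), where 1.73% were, and this call was lost in 5 of 21 alternatives. MALAT1 measured 97.3 to 163 CPM with anti-LAG3 and 127 to 229 with isotype. Of 12 tested RNAs without a poly(A) tail, 0 changed with either antibody (median -0.21 with anti-LAG3 and -0.23 with anti-PD1). Along the dose slope of the combination minus isotype 2 fell, HIST1H1E (-1.18, adjusted p = 0.0370) and HIST1H4C (-0.52, adjusted p = 0.00999), where 2.80% of tested genes were called lower. In both, isotype was highest at 1 µg/ml and the combination at 0.01, and the calls were lost in 9 and 6 of 21 alternatives. The summed level of these RNAs without a tail was 284 to 298 CPM with anti-LAG3 and 189 to 333 CPM with isotype. The call of KCNQ1OT1 with anti-LAG3 was lost in 2 alternatives, the T minus B covariate and the GC and length correction, and that of NEAT1 in 4, among them those without anti-LAG3 or isotype at 0.1 µg/ml. Copies of mitochondrial genes in the nuclear genome share sequence with the members or, for the MTRNR2L symbols, with MT-RNR2. There were 109 symbols of such copies with a count, and together they held 1.09 counts per 100 member counts, of which MTATP6P1 took 81.1%. They measured 379 to 551 CPM with isotype and 303 to 345 CPM with anti-LAG3, and their part in the members' values was not tested.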

How the data were processed

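RNA was sequenced from 12 co-culture libraries. The authors deposited raw read counts for 55782 symbols, which are not normalised. The submitters' processing notes name the build GRCh38 and the tools DESeq2, Subread 1.5.2 (featureCounts), STAR 2.5.2b and Trimmomatic 0.36. The strand setting, annotation release and handling of multimapping reads: not given in the sources used here. The authors' deposited comparison tables give log2 fold changes, and the p-values and adjusted p-values deposited with them, of 1 library against 3 isotype libraries. Not used were 4 count columns that match no sample and 36 columns of per-sample values in those tables.

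Members, gene lists and tests were chosen with earlier results of these data known. All 13 mRNAs were named, tRNAs where called or among the 5 most counted, and up to 3 genes per list with the smallest p. With edgeR 4.0.16 (R 4.3.3), filterByExpr (minimum count 10) chose the genes, TMM scaled the libraries and genes were tested by the robust quasi-likelihood test in a model of arm plus dose (6 residual degrees of freedom) or of arm plus a log10 dose slope for each arm (4 residual degrees of freedom). Adjustment was by Benjamini-Hochberg across 15535 genes. CPM values use the TMM-scaled library size. Alternatives included DESeq2 1.42.0, other scalings, no filter, a GC and length correction (88.1% of tested genes had a value), a covariate for T minus B markers, other dose terms, and leaving out each library. The model was tested on simulated data. Sequences and positions came from GENCODE v29.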

Additional observations from a re-analysis of the deposited data

Results flagged for a closer look

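For 13 of 32 tested members the estimated effects of the single antibodies did not add up to the estimated effect of the combination. All 13 were called higher, as were 1134 of 15535 tested genes (7.30%), while 1238 genes were called lower. The difference was tested as an interaction by edgeR (quasi-likelihood, p adjusted by Benjamini-Hochberg over all genes), in a contrast added after values were seen, and the arms share their isotype libraries. With the GC and length correction 2 members were called. The single-antibody libraries also carry the lower numbers in the labels, so this order and the arms cannot be told apart. Values are log2, with a standard error. Among mRNAs it was 0.99 ± 0.16 for MT-ND5 (adjusted p = 0.00515), 0.96 ± 0.15 for MT-ND6 (adjusted p = 0.00592), 0.86 ± 0.19 for MT-ND4L (adjusted p = 0.0242), 0.80 ± 0.18 for MT-ND4 (adjusted p = 0.0239) and 0.73 ± 0.18 for MT-ATP8 (adjusted p = 0.0358). Complex I accounted for 4 of these 5 and for 7 of the 13 mRNAs tested.

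Among tRNAs with over 20 CPM on average it was 0.85 ± 0.14 for MT-TV (adjusted p = 0.00106), 0.72 ± 0.17 for MT-TL1 (adjusted p = 0.0291) and 1.04 ± 0.24 for MT-TF (adjusted p = 0.0232). Among those under 10 CPM it was 1.37 ± 0.22 for MT-TE (adjusted p = 0.000898), 1.39 ± 0.31 for MT-TA (adjusted p = 0.00396), 1.05 ± 0.26 for MT-TT (adjusted p = 0.00818), 1.86 ± 0.56 for MT-TH (adjusted p = 0.0318) and 0.93 ± 0.29 for MT-TW (adjusted p = 0.0353). The standard error was largest for MT-TH, which has few counts.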

How the results depend on the processing

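Among the recomputed values of called members, 488 kept their direction and stayed past the threshold, 203 kept their direction and lost the call, and 1 changed sign: the MT-TY dose slope of the combination was 0.046 without both isotype at 1 and the combination at 0.01 µg/ml. Beside the 8, 3, 0, 3, 0, 0 and 13 members called for anti-LAG3, anti-PD1 and the combination against isotype, the combination against anti-LAG3 and against anti-PD1, anti-PD1 against anti-LAG3 and the non-additive contrast, and 0, 0 and 5 for the dose slopes of anti-LAG3, anti-PD1 and the combination, the counts that moved by over 1.5 times were as follows. DESeq2 gave 14 for anti-LAG3, 10 for the combination against anti-LAG3, and 1 and 3 for the slopes of anti-LAG3 and the combination. In each of the first 2 it gave 11 members no adjusted p, so these could not be called. The GC and length correction gave 1 for anti-LAG3, 0 for anti-PD1, 0 for the combination against anti-LAG3, 2 for the non-additive contrast and 10 for the anti-LAG3 slope. The T minus B covariate gave 0 for anti-LAG3, 0 for the combination against anti-LAG3, 6 for the non-additive contrast, and 13, 4 and 15 for the slopes in the order above. No filter gave 7 for anti-PD1, 5 and 2 for the combination against anti-LAG3 and anti-PD1, and 14, 1 and 15 for the slopes. Without a dose term anti-LAG3 had 13, and the combination against anti-PD1 had 1 there, with dose as a number and with scaling without mitochondrial genes. Slopes tested against 0 gave 3 for anti-LAG3 and 3 for the combination. Chosen after seeing the data, leaving out the 3 libraries with the most counts gave 15 for anti-LAG3, 16 for anti-PD1, 1 for the combination and 7 for the combination against anti-PD1, and leaving out both libraries named above gave 0 for the combination slope. Upper quartile scaling and library totals moved no count by over 1.5 times. The shares of all genes called under these alternatives are not given, so a shift of members and a shift of all genes cannot be told apart. The cause of these shifts was not tested.

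Leaving out 1 library gave 2 to 12 for anti-LAG3, 0 to 12 for anti-PD1, 0 for the combination, 1 to 4 and 0 to 3 for the combination against anti-LAG3 and anti-PD1, 0 for anti-PD1 against anti-LAG3, 6 to 18 for the non-additive contrast, and 0 to 7, 0 to 2 and 0 to 7 for the slopes. The mRNA median stayed below 0 for both single antibodies under every alternative run. No paired analysis was possible because the labels number no replicates and the 3 libraries of an arm are its doses, which the model holds as a term. MT-TG, MT-TR and MT-TS2 had too few counts to be tested.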
